A study of Mus musculus with 9 samples.

Results

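This account follows 34 genes of astrocytes, the glial cells that surround synapses and blood vessels in the brain, through 9 RNA libraries of brain tissue. The members were taken from a list of astrocyte identity and metabolism genes, matched by symbol, and they are 34 of 54446 genes counted and 34 of 17355 genes tested. All 34 passed the filter on low counts. They were not chosen by a threshold on these libraries, although earlier results from the same libraries were known when the list was made.

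The libraries came from adult male mice aged 3 to 4 months, 3 of each genotype: Tfap2a+/-, Tfap2b+/- and wild type (labelled B6N). The series title calls the mutants heterozygous knockouts; Tfap2a encodes the transcription factor AP-2 alpha and Tfap2b encodes AP-2 beta. No other allele or treatment is given for any group. The piece of brain taken, the construction of the alleles and whether replicates were separate animals are not given in the labels. Every p-value therefore covers only the variation among these libraries, part of which may be technical.

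Astrocytes take up glutamate and GABA after release, turn glutamate into glutamine, buffer potassium and water at their endfeet, and share metabolites through gap junctions. Their identity also differs by region: in the mouse, Mfge8 and the LIM-homeodomain factor Lhx2 mark astrocytes of the telencephalon, while Agt, which encodes angiotensinogen, and Slc6a11, which encodes the GABA transporter GAT-3, are stronger in the diencephalon, midbrain and hindbrain. Some members are not confined to astrocytes. Vim is made in endothelium, Clu and Sparcl1 are also made by other cells, Glul is made in oligodendrocytes too, and Sox2, Hes5, Id4 and Fabp7 are active in neural progenitors.

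The 5 promoter windows below belong to the 4 regional genes, from which an index of region is formed below, and they are shown because the mutated genes encode DNA-binding factors. Each runs from 250 bases before a start of transcription to 50 bases after it (RefSeq, build GRCm38.p6, 5′ to 3′ on the strand of the gene). Capitals mark GCCNNNGGC, the palindrome to which AP-2 proteins are known to bind, which reads the same on both strands. Lhx2 has a window at each of 2 annotated starts.

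Agt (chr8:124569657-124569956, minus strand): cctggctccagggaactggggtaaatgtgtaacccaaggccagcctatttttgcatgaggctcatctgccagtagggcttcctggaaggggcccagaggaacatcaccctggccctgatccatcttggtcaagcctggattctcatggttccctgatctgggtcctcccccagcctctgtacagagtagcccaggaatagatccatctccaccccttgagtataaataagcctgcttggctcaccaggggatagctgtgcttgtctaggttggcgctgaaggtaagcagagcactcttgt
Slc6a11 (chr6:114130991-114131290, plus strand): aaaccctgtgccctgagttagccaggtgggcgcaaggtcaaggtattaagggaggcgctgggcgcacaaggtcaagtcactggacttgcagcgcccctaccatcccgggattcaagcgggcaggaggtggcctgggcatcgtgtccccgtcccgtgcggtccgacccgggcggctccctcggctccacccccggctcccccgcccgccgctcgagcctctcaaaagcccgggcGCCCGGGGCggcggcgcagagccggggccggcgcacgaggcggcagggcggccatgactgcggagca
Mfge8 (chr7:79149011-79149310, minus strand): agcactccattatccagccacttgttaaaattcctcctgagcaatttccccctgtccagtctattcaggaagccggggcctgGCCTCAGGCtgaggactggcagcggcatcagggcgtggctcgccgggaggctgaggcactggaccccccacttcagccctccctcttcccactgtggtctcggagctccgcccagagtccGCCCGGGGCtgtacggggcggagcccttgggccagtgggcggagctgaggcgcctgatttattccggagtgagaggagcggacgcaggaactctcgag
Lhx2 upstream start (chr2:38339031-38339330, plus strand): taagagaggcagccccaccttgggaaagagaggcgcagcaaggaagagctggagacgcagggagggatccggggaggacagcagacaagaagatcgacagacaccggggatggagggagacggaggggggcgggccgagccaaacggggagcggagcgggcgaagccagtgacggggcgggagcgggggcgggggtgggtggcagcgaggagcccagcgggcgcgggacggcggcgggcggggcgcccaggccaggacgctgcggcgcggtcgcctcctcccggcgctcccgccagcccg
Lhx2 downstream start (chr2:38351058-38351357, plus strand): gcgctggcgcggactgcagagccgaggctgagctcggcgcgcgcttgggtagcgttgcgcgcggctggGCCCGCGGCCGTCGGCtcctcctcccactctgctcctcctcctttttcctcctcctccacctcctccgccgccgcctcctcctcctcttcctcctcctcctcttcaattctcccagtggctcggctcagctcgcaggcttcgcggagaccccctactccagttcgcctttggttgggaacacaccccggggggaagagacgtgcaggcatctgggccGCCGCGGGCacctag

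Counted from 1 at the 5′ end of each window, the palindrome began at base 234 in Slc6a11, at bases 83 and 203 in Mfge8, and at bases 69, 76 and 286 in the downstream window of Lhx2, where the first and second sites overlap. These letters are not in the windows of Agt or of the upstream start of Lhx2. Across the list, 29 genes had a RefSeq window, and 7 of them (24.1%) held the palindrome: Slc6a11, Mfge8, Lhx2, Glul, Hes5, Mlc1 and Vim. No window was given for Aqp4, Atp1b2, Clu, Fjx1 and Sparcl1. Counted by window, 7 of 36 (19.4%) held it, against 16.6% of all 32851 promoter windows of the same length, and the astrocyte windows had a median GC content of 58.5% against 52.7% in all windows. Such a match describes the sequence only.

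Gene counts per library ran from 22496880 to 28517579 in Tfap2a+/-, from 26216100 to 29214975 in the libraries labelled Tfap2b+/- and from 21946800 to 27051802 in wild type. The levels below are CPM, the counts of a gene relative to the size of its library, scaled by TMM, which adjusts for differences in composition, and at these depths a count of 0 would have allowed up to 0.101 to 0.141 CPM (counting error only). The lowest count of any member in any library was 68, for Hes5. Tfap2b went against its label, at 32.9, 8.90 and 5.81 CPM in libraries 1 to 3 labelled Tfap2b+/- and 2.25, 0.715 and 14.8 CPM in wild type. Tfap2a was near the limit of detection, at 0.223 to 0.461 CPM in Tfap2a+/- and 0.263 to 0.734 CPM in wild type. Several libraries stood apart in markers of other regions or tissues: brainstem and hypothalamic markers summed to 85.5 CPM in library 1 labelled Tfap2b+/- and to at most 4.67 CPM elsewhere, and olfactory bulb markers to 222 CPM in library 3 of that label and at most 67.0 CPM elsewhere. Choroid plexus markers summed to 3227 CPM in wild-type library 2 and 903 CPM in Tfap2a+/- library 1, and to at most 307 CPM elsewhere. The 10 striatal markers summed to 2631, 2308 and 883 CPM in Tfap2a+/-, 363, 550 and 755 CPM in libraries labelled Tfap2b+/-, and 363, 972 and 413 CPM in wild type, so that Tfap2a+/- libraries 1 and 2 stood above all others. Reads that met no annotated exon on the strand counted were 11.1% to 11.8% of fragments in the libraries labelled Tfap2b+/-, against 7.30% to 8.86% in wild type.

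The genes that define astrocytes were present in all 9 libraries. Per kilobase of exon, which allows levels to be compared between genes, Sparcl1 led with a mean of 659 CPM per kb. It encodes hevin, a secreted protein that promotes synapse formation. Glul, for glutamine synthetase, followed at 424 CPM per kb, and Slc1a2, for the main forebrain glutamate transporter GLT-1, at 319 CPM per kb. Slc1a3, for the related transporter GLAST, stood at 64.8 CPM per kb. The lowest levels were those of Vim (8.61 CPM per kb), an intermediate filament of immature and reactive astrocytes, and Hes5 (5.72 CPM per kb), a Notch target of progenitors. With the longest transcript in place of all exons as the length, the same 3 genes led and Hes5 was again last, but Gja1 was 11th in place of 21st.

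**Figure D1:**
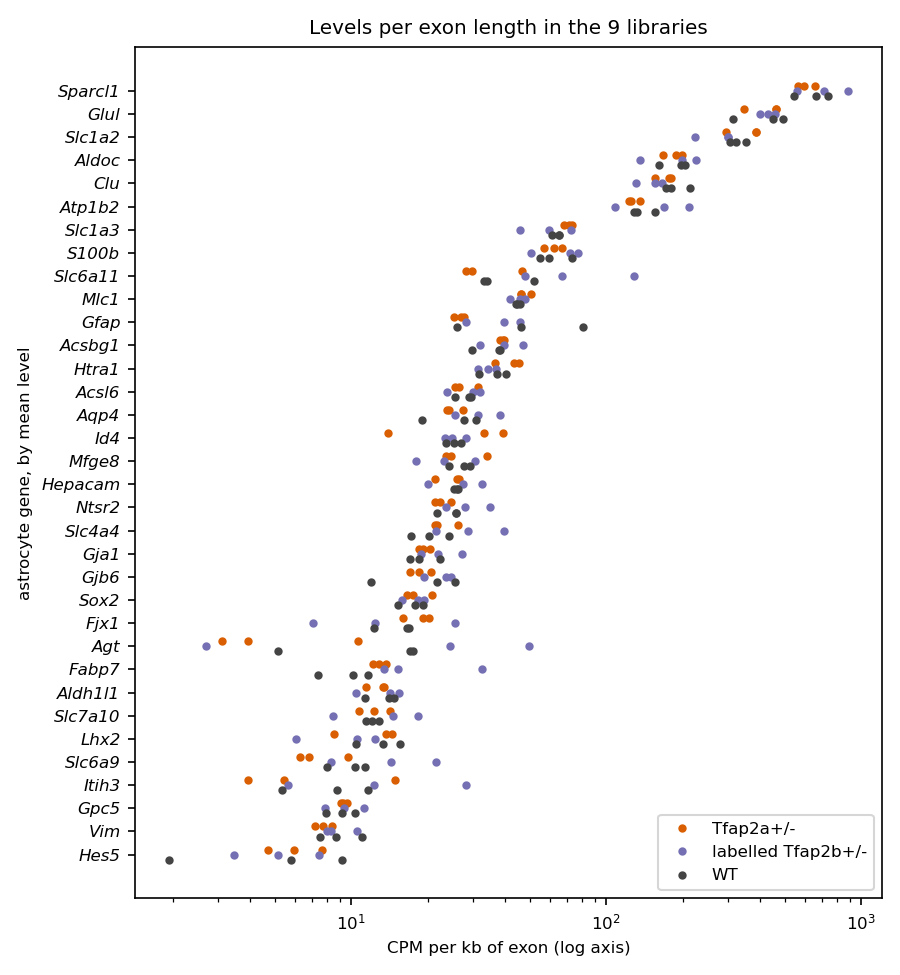
Level of each astrocyte gene in CPM per kilobase of exon (log axis), 1 point per library, coloured by genotype as labelled. Sparcl1, Glul and Slc1a2 lie highest and Hes5 lowest, and the points of Agt spread most.

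The median coefficient of variation of the list over the 9 libraries was 16.8%, against 16.0% for all genes tested. It was 10.5% for the 10670 genes whose mean level lay within the range of the list. That range is wide (7.79 to 4194 CPM), so those genes were not matched in level. The list also holds regional genes and was chosen with earlier results known, so its spread is partly set by that choice. The highest library exceeded the lowest by less than 2-fold for 20 of 34 genes and by 3-fold or more for 8. The steadiest was Mlc1, a membrane protein of endfeet lost in a childhood leukodystrophy, which spanned 1.21-fold (117 to 142 CPM). Agt spanned 18.5-fold, Itih3, for a heavy chain of inter-alpha-trypsin inhibitor, 7.16-fold, Hes5 4.79-fold, Slc6a11 4.54-fold, Fabp7 4.41-fold, Fjx1 3.61-fold, Slc6a9 3.44-fold and Gfap 3.21-fold.

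Library 1 labelled Tfap2b+/- held the highest value of 18 of the 34 genes and the lowest value of 5. For all genes tested it held 21.7% of highest values and 22.6% of lowest ones. The 18 included some genes of transport, junctions and enzymes (Aqp4, Gja1, Atp1b2, Slc4a4, Aldoc, Aldh1l1) as well as Agt and Slc6a11. Gjb6, Mlc1 and Glul were not among them. The 5 were Slc1a2, Slc1a3, Mfge8, Lhx2 and Fjx1, so both telencephalic genes and both glutamate transporters were lowest in the library where Agt was highest. Library 3 of the same label held the lowest value of 12 genes, among them Aldoc, Aldh1l1, Clu and Agt, and the highest value of Fabp7 and Fjx1. For all genes tested it held 10.9% of lowest values and 11.9% of highest ones.

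**Figure D2:**
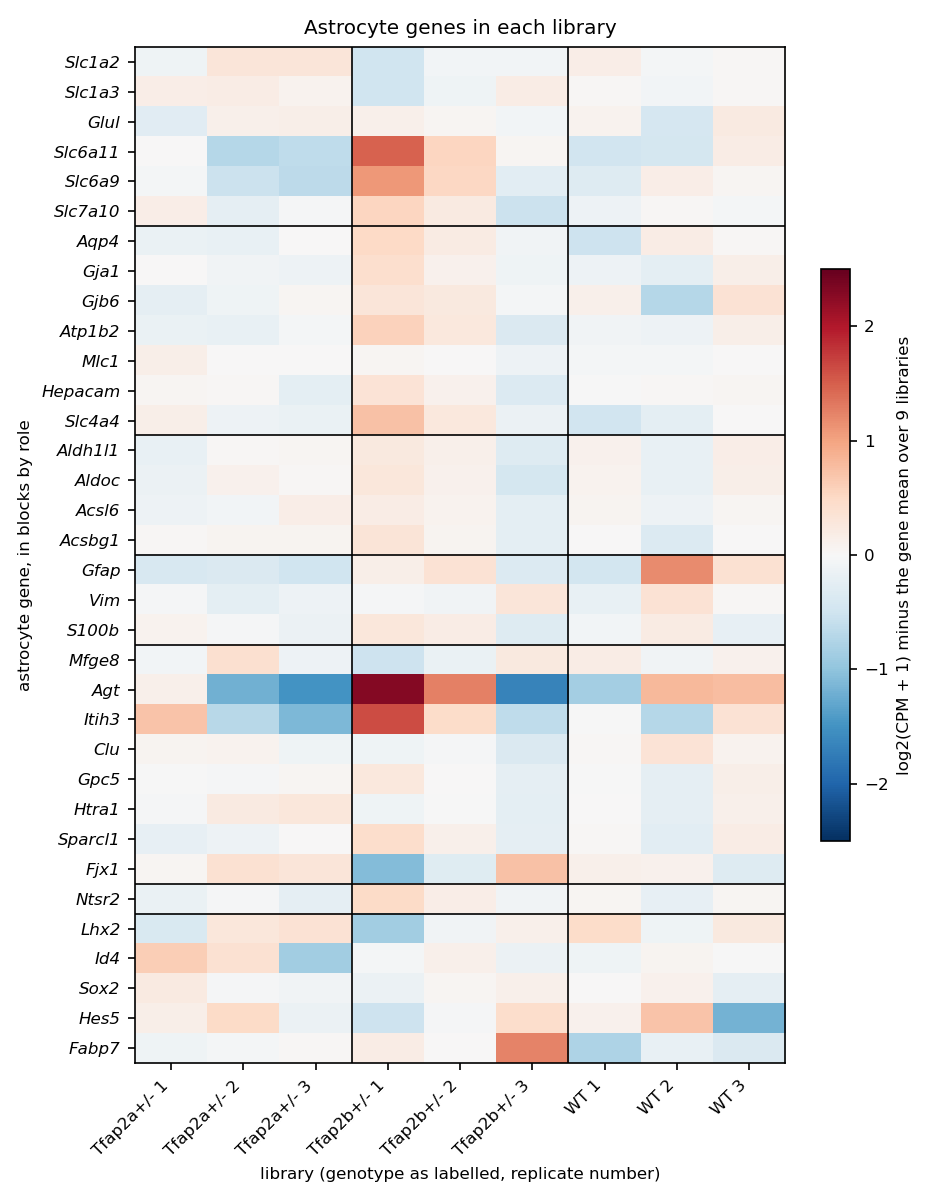
Each row is an astrocyte gene and each column a library. Colour shows the distance of log2(CPM + 1) from the row mean, with rows in blocks by role. Agt, Slc6a11, Slc6a9 and Itih3 are high in library 1 labelled Tfap2b+/-, Gfap is high in wild-type library 2 and Fabp7 in library 3 labelled Tfap2b+/-.

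Agt (ENSMUSG00000031980.9, chromosome 8, 124556534 to 124569706, minus strand, GRCm38) had 20.2, 7.44 and 5.90 CPM in Tfap2a+/- libraries 1 to 3, 94.0, 46.0 and 5.09 CPM in libraries labelled Tfap2b+/-, and 9.77, 33.0 and 32.1 CPM in wild type. The highest and the lowest of the 9 values both came from libraries labelled Tfap2b+/-, so these overlapped both other groups. Slc6a11 (ENSMUSG00000030307.8, chromosome 6, 114131241 to 114249952, plus strand) had 235, 142 and 150 CPM in Tfap2a+/-, 646, 340 and 242 CPM in libraries labelled Tfap2b+/-, and 167, 172 and 264 CPM in wild type. Libraries 1 and 2 labelled Tfap2b+/- exceeded every other library, while library 3 lay below wild-type library 3. Slc6a9, for the glycine transporter GlyT1, which is abundant in caudal regions, had 49.7, 35.2 and 32.2 CPM in Tfap2a+/-, 111, 73.7 and 42.8 CPM in libraries labelled Tfap2b+/-, and 41.2, 57.9 and 53.4 CPM in wild type, so its order within the Tfap2b+/- label was that of Agt and Slc6a11.

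Mfge8, for a secreted bridge between dying cells and phagocytes (ENSMUSG00000030605.15, chromosome 7, 79133768 to 79149060, minus strand), had 115, 159 and 110 CPM in Tfap2a+/-, 84.2, 108 and 144 CPM in libraries labelled Tfap2b+/-, and 136, 113 and 130 CPM in wild type. Within the Tfap2b+/- label the order of the libraries was the reverse of that of Agt and Slc6a11. Lhx2 (ENSMUSG00000000247.11, chromosome 2, 38339281 to 38369733, plus strand) had 37.5, 60.0 and 63.4 CPM in Tfap2a+/-, 26.8, 46.4 and 54.2 CPM in libraries labelled Tfap2b+/-, and 68.1, 45.7 and 58.5 CPM in wild type. For both genes the 3 groups overlapped.

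A regional index was formed in each library as the mean log2 CPM of Mfge8 and Lhx2 minus the mean log2 CPM of Agt and Slc6a11, so that a low value means relatively more of the caudal pair. It was -0.07, 1.59 and 1.49 in Tfap2a+/-, -2.38, -0.82 and 1.33 in the libraries labelled Tfap2b+/-, and 1.26, -0.06 and -0.07 in wild type. The 2 lowest values were those of libraries 1 and 2 labelled Tfap2b+/-. The third library of that label lay between wild-type library 1 and Tfap2a+/- library 3. The mean minus that of wild type was 0.63 for Tfap2a+/- (SD within the group 0.93) and -0.99 for the libraries labelled Tfap2b+/- (SD 1.86), where the SD of wild type was 0.76 (n = 3 each), and all groups overlapped. These differences were not tested. Scaling between libraries cannot move this index, since it is formed within each library.

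Sums of regional markers followed the index only in part. The 7 telencephalic markers, with Emx1 among them, summed to 222, 443 and 568 CPM in libraries 1 to 3 labelled Tfap2b+/-, the order of the index. They summed to 467, 595 and 587 CPM in Tfap2a+/-, also the order of the index. In wild type the sums were 596, 485 and 579 CPM, with library 1 highest in both. The 8 thalamic markers summed to 571, 983 and 216 CPM in the libraries labelled Tfap2b+/-. Their sums were 240, 182 and 255 CPM in Tfap2a+/- and 311, 345 and 256 CPM in wild type. The highest thalamic sum was thus in library 2 labelled Tfap2b+/-, while the index was lowest in library 1. In wild type the lowest and highest thalamic sums were in libraries 3 and 2, whose index values were nearly equal (-0.07 and -0.06). Of the 12 brainstem and hypothalamic markers, Tph2, which makes serotonin in raphe neurons, was at 40.9 CPM in library 1 labelled Tfap2b+/- and 0.517 to 1.55 CPM elsewhere. Hoxa2, a gene of the hindbrain, was at 0 in all 9 libraries. The 8 cerebellar markers summed to 192 to 271 CPM in the libraries labelled Tfap2b+/-, 204 to 250 CPM in Tfap2a+/- and 159 to 185 CPM in wild type, and the granule cell marker Gabra6 was at 0 in 8 of 9 libraries and at 0.0772 CPM in the other. The part of regional make-up in the levels of Agt and Slc6a11 was not tested. In tissue of this kind, fewer astrocytes of one type and less RNA per astrocyte cannot be told apart.

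**Figure D3:**
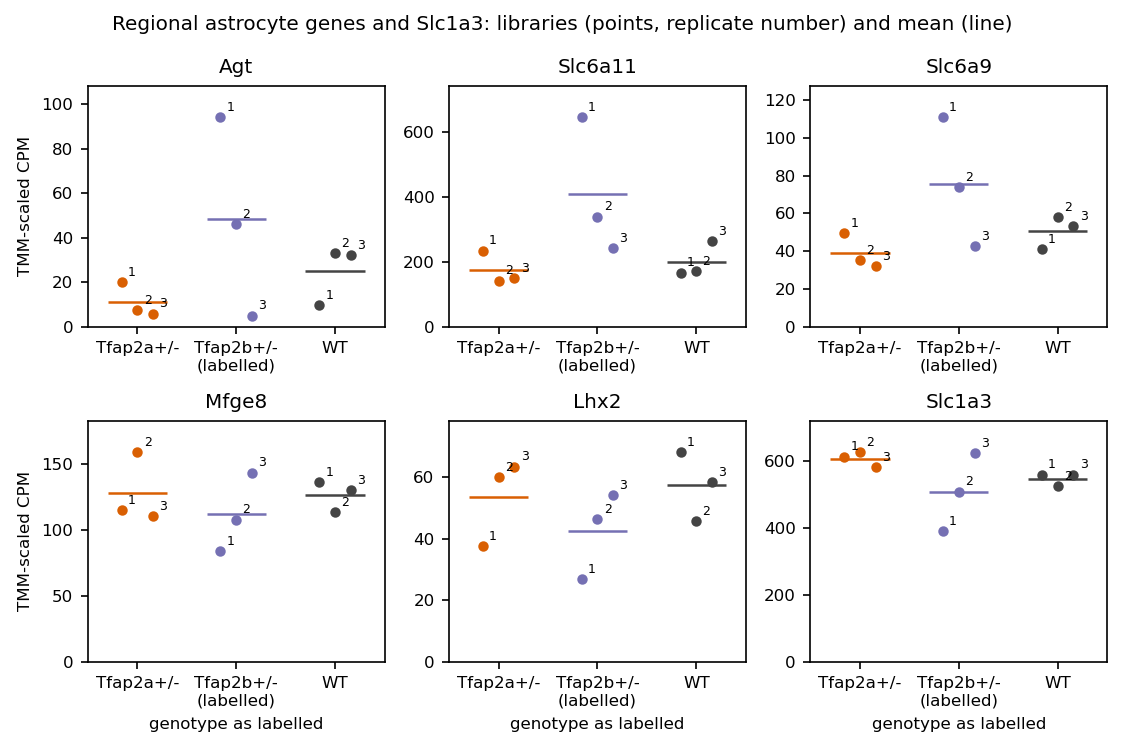
TMM-scaled CPM of 3 caudally enriched genes (Agt, Slc6a11, Slc6a9), 2 telencephalic genes (Mfge8, Lhx2) and the glutamate transporter gene Slc1a3. Points are libraries with their replicate number and lines are group means. Library 1 labelled Tfap2b+/- is highest for Agt, Slc6a11 and Slc6a9, at 94.0, 646 and 111 CPM, and lowest for the other 3 genes.

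Among the other genes of transmitter uptake and recycling, Slc1a2 had 3860, 5080 and 5079 CPM in Tfap2a+/-, 2937, 3958 and 3949 CPM in libraries labelled Tfap2b+/-, and 4628, 4010 and 4242 CPM in wild type. All 3 libraries labelled Tfap2b+/- lay below all wild-type ones, and Tfap2a+/- overlapped wild type. Slc1a3, stronger in cerebellum and other caudal regions in mouse, had 612, 625 and 581 CPM in Tfap2a+/-, 390, 507 and 622 CPM in libraries labelled Tfap2b+/-, and 558, 523 and 558 CPM in wild type, so that Tfap2a+/- lay above wild type in every library. Glul overlapped between all groups, with 1152, 1535 and 1542 CPM in Tfap2a+/-, 1518, 1436 and 1334 CPM in libraries labelled Tfap2b+/-, and 1495, 1047 and 1637 CPM in wild type. Slc7a10, for the small amino acid exchanger Asc-1, ranged from 17.8 to 38.6 CPM, with both ends in the libraries labelled Tfap2b+/-.

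The 7 genes of water, ion and junction proteins all had a higher mean in the libraries labelled Tfap2b+/- than in wild type, against 49.7% of all genes, and none passed the test. Without library 1 of that label the count was 4 of 7. Their summed level was 2112, 1701 and 1264 CPM in libraries labelled Tfap2b+/-, and 1302, 1349 and 1583 CPM in wild type, so library 3 of the label lay below every wild-type library. Aqp4, the water channel of endfeet, had 151, 147 and 171 CPM in Tfap2a+/-, 239, 195 and 159 CPM in libraries labelled Tfap2b+/-, and 118, 192 and 173 CPM in wild type. Slc4a4, for the sodium bicarbonate cotransporter NBCe1, had 284, 235 and 230 CPM in Tfap2a+/-, 427, 310 and 233 CPM in libraries labelled Tfap2b+/-, and 185, 218 and 261 CPM in wild type. In both genes library 3 labelled Tfap2b+/- lay within the wild-type range. Gja1 and Gjb6, for the gap junction proteins connexin 43 and connexin 30, ranged from 174 to 279 CPM and from 32.0 to 68.3 CPM. Atp1b2, a subunit of the sodium pump, was at 443 to 859 CPM, Hepacam, the adhesion partner of Mlc1, at 66.8 to 109 CPM, and Mlc1 itself lay higher in each Tfap2a+/- library (129 to 142 CPM) than in each wild-type library (124 to 129 CPM).

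Aldh1l1, a folate enzyme widely used to mark astrocytes, had 51.5, 59.9 and 60.5 CPM in Tfap2a+/-, 69.4, 64.1 and 46.9 CPM in libraries labelled Tfap2b+/-, and 63.7, 51.3 and 66.1 CPM in wild type. Aldoc, the brain form of the glycolytic enzyme aldolase, ranged from 443 to 733 CPM. Acsl6 and Acsbg1, which activate long-chain fatty acids, ranged from 236 to 316 CPM and from 107 to 170 CPM. Of these 4 genes, Acsbg1 had groups that did not overlap, at 138 to 143 CPM in Tfap2a+/- and 107 to 137 CPM in wild type.

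Gfap, the intermediate filament that increases in reactive astrocytes and is strong near ventricles, white matter and the brain surface (ENSMUSG00000020932.14, chromosome 11, 102887336 to 102900912, minus strand), had 113, 116 and 106 CPM in Tfap2a+/-, 167, 193 and 119 CPM in libraries labelled Tfap2b+/-, and 110, 341 and 195 CPM in wild type. Tfap2a+/- was narrow, while wild type spanned from a value within the Tfap2a+/- range to the highest of the 9. Wild-type library 2 was also highest for Vim (52.4 CPM, against 34.1 to 49.9 CPM elsewhere), Clu and Hes5. It held the highest sums of ependymal markers (83.6 CPM, against 13.2 to 58.4 CPM elsewhere) and choroid plexus markers (3227 CPM). Other libraries showed this match only in part. Tfap2a+/- library 3 was lowest of the 9 in Gfap (106 CPM), in ependymal markers (13.2 CPM) and in choroid plexus markers (22.5 CPM). Tfap2a+/- library 1 had ependymal and choroid plexus sums of 55.0 and 903 CPM with Gfap at 113 CPM. Wild-type library 3 and library 2 labelled Tfap2b+/-, next in Gfap at 195 and 193 CPM, had ependymal sums of 29.2 and 35.5 CPM. Ependymal markers summed to 13.2 to 55.0 CPM in Tfap2a+/-, 22.2 to 58.4 CPM in the libraries labelled Tfap2b+/-, with 29.2 to 83.6 CPM in wild type. Foxj1 of motile cilia was at 2.68 to 25.5 CPM, with a count in every library. Their part in the Gfap level was not tested. Vim had 39.9, 34.1 and 36.7 CPM in Tfap2a+/-, 39.4, 38.0 and 49.9 CPM in libraries labelled Tfap2b+/-, and 35.6, 52.4 and 41.4 CPM in wild type, with all groups overlapping. S100b, a calcium-binding protein of astrocytes and some oligodendrocytes, ranged from 74.9 to 115 CPM.

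Among the secreted and matrix proteins, Htra1, a serine protease, had 105, 125 and 131 CPM in Tfap2a+/-, 99.2, 107 and 90.4 CPM in libraries labelled Tfap2b+/-, and 107, 91.2 and 117 CPM in wild type, so that all groups overlapped. Itih3 ranged from 14.3 CPM in Tfap2a+/- library 3 to 102 CPM in library 1 labelled Tfap2b+/-. Sparcl1 ranged from 1601 to 2607 CPM and Gpc5, for a cell-surface glypican, from 35.0 to 49.8 CPM, each with its highest value in that same library. The receptor gene Ntsr2, for a neurotensin receptor of astrocytes, had 69.3, 76.9 and 66.6 CPM in Tfap2a+/-, 109, 87.3 and 73.6 CPM in libraries labelled Tfap2b+/-, and 80.5, 67.6 and 80.6 CPM in wild type, where the groups overlapped.

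Fabp7, the brain lipid-binding protein of radial glia (ENSMUSG00000019874.11, chromosome 10, 57784881 to 57788450, plus strand), had 15.2, 16.0 and 17.1 CPM in Tfap2a+/-, 19.0, 16.8 and 40.8 CPM in libraries labelled Tfap2b+/-, and 9.25, 14.5 and 12.7 CPM in wild type. Every library of either heterozygote lay above every wild-type library, and library 3 labelled Tfap2b+/- was more than 2-fold above the rest. The same library held the highest sum of the 8 olfactory bulb markers, 222 CPM. That sum was 33.4 to 67.0 CPM in Tfap2a+/-, 28.7 and 37.5 CPM in the other 2 libraries labelled Tfap2b+/- and 33.2 to 37.1 CPM in wild type. Cdhr1 of mitral and tufted cells reached 92.4 CPM there and 2.96 to 17.8 CPM elsewhere. Summed markers of mural cells, meningeal fibroblasts and cerebellum also lay above wild type in every library of either heterozygote. Cerebellar sums were at most 185 CPM in wild type and at least 192 CPM in the other groups. The granule cell marker Gabra6 was nevertheless at 0 in every library of either heterozygote, so these sums came from the other genes of that list. Summed genes of glucose, glycogen and lactate lay below wild type throughout, at no more than 2871 CPM against no less than 2875 CPM. A lack of overlap with wild type was therefore not particular to mural and meningeal markers. The 8 mural markers summed to 266 to 322 CPM in Tfap2a+/-, 289 to 324 CPM in the libraries labelled Tfap2b+/-, with 245 to 264 CPM in wild type. The 7 meningeal fibroblast markers summed to 87.5 to 122 CPM in Tfap2a+/-, 89.5 to 164 CPM in the libraries labelled Tfap2b+/-, with 73.3 to 82.6 CPM in wild type. The part of any of these in the Fabp7 level was not tested. Fjx1, the mouse homologue of the fly growth regulator four-jointed, was also highest in that library (80.2 CPM) and lowest in library 1 of the same label (22.2 CPM).

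Id4, an inhibitor of basic helix-loop-helix factors, had 151, 128 and 53.8 CPM in Tfap2a+/-, 95.6, 108 and 89.5 CPM in libraries labelled Tfap2b+/-, and 90.9, 103 and 97.7 CPM in wild type, with its highest and lowest values both in Tfap2a+/-. Libraries 1 and 2 of Tfap2a+/- held both the 2 highest values of Id4 and the 2 highest sums of striatal markers, and the part of striatal tissue in the Id4 level was not tested. Sox2, a factor of neural stem cells kept on in astrocytes, spanned 31.2 to 42.5 CPM. Hes5 ranged from 2.63 CPM in wild-type library 3 to 12.6 CPM in wild-type library 2.

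**Figure D4:**
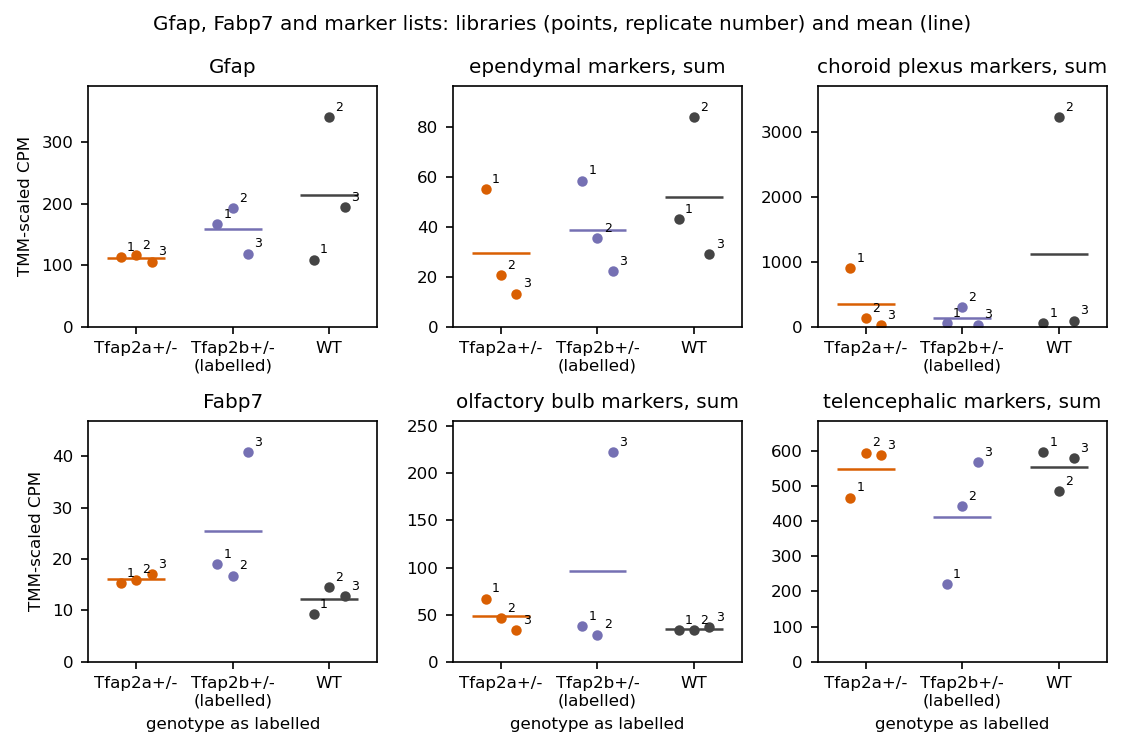
TMM-scaled CPM of Gfap and Fabp7 beside the summed CPM of 4 marker lists, by genotype as labelled. Points are libraries with their replicate number and lines are group means. Gfap, ependymal and choroid plexus markers are highest in wild-type library 2, at 341, 83.6 and 3227 CPM. Fabp7 and olfactory bulb markers are highest in library 3 labelled Tfap2b+/-, at 40.8 and 222 CPM.

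The comparison of Tfap2a+/- with wild type asked which of these genes differ in mice labelled as lacking 1 copy of Tfap2a. None of the 34 genes passed an edgeR quasi-likelihood test with p-values adjusted (Benjamini-Hochberg) over 17355 genes, and 0% of all genes did. DESeq2 called none of the 34 and 0.173% of all genes. At an unadjusted p under 0.05 there was 1 member, Gfap, with a lower mean, and 3.84% of all genes (2.15% higher and 1.68% lower). Gfap averaged 112 ± 5.17 CPM in Tfap2a+/- and 215 ± 117 CPM in wild type (SD, n = 3 each), a log2 fold of -0.94 ± 0.35 (SE, edgeR adjusted p = 0.999). Without wild-type library 2 its log2 fold was -0.44.

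Members were split evenly in direction: 16 of 34 had a higher mean in Tfap2a+/-, against 48.1% of all genes, and the median log2 fold was -0.01 for the list and -0.01 for all genes. For 4 members every Tfap2a+/- library lay above every wild-type one (Slc1a3, Mlc1, Acsbg1 and Fabp7) and for none below, while 9.17% of all genes had groups that did not overlap (4.85% higher and 4.32% lower). These 4 had log2 folds of 0.15 ± 0.15, 0.09 ± 0.08, 0.15 ± 0.15 and 0.40 ± 0.32 (SE). After Gfap, the members of smallest p were Htra1 (log2 fold 0.20 ± 0.12), Vim (-0.23 ± 0.16), Agt (-1.15 ± 0.90), Fabp7 and Slc6a9 (-0.38 ± 0.32). Agt shows how little its spread allows: its 95% interval ran from -3.19 to 0.89. For 26 of the 34 genes the interval excluded a 2-fold change in either direction, and the same held for 25 of 34 in the libraries labelled Tfap2b+/-.

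For the libraries labelled Tfap2b+/- against wild type, none of the 34 genes passed with edgeR (0% of all genes did) or with DESeq2 (1.01% of all genes). At an unadjusted p under 0.05 there were 4 members, against 10.6% of all genes (6.46% higher and 4.15% lower): Fabp7, Slc6a11 and Slc4a4 with a higher mean and Clu, for the secreted chaperone clusterin, with a lower one. Fabp7 averaged 25.5 ± 13.3 CPM in the libraries labelled Tfap2b+/-, against 12.2 ± 2.67 CPM in wild type, a log2 fold of 1.06 ± 0.32 (SE, edgeR adjusted p = 0.37), which was 0.55 without library 3 of that label. Slc6a11 averaged 409 ± 211 CPM in the libraries labelled Tfap2b+/-, against 201 ± 54.5 CPM in wild type, a log2 fold of 1.03 ± 0.36 (edgeR adjusted p = 0.43), which was 0.54 without library 1 of that label. Slc4a4 had a log2 fold of 0.55 ± 0.22 and 0.30 without library 1 of that label.

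Clu had 534, 567 and 449 CPM in the libraries labelled Tfap2b+/-, against 590, 734 and 618 CPM in wild type, with no overlap. Its log2 fold was -0.32 ± 0.12 (edgeR adjusted p = 0.45), and -0.22 without wild-type library 2. Slc6a9 (0.57 ± 0.31) and Ntsr2 (0.24 ± 0.14) came next by p. Their log2 folds were 0.20 and 0.08 without library 1 labelled Tfap2b+/-. Groups did not overlap for 3 members, Fabp7 higher and Clu and Slc1a2 lower, against 16.5% of all genes (8.84% higher and 7.63% lower). A higher mean was seen in 22 of 34 members (17 of 34 without library 1 of that label), against 49.7% of all genes, with a median log2 fold of 0.04 for the list and -0.00 for all genes.

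**Figure D5:**
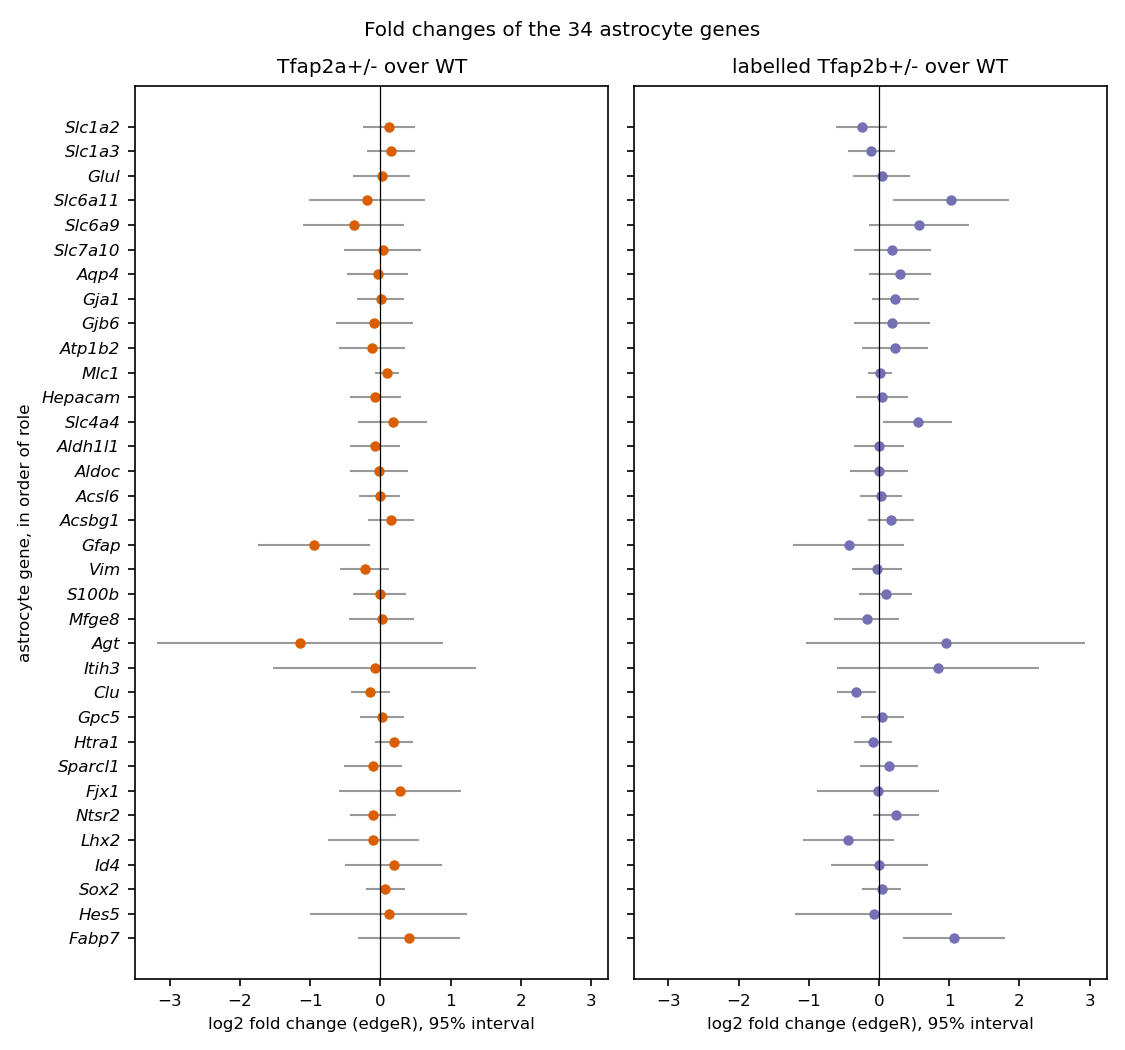
Log2 fold change of each astrocyte gene over wild type with its 95% interval from the edgeR fit, for Tfap2a+/- and for the libraries labelled Tfap2b+/-. The interval of Agt is the widest, and no gene passed the adjusted test.

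The difference between both heterozygotes was tested directly, as Tfap2a+/- over the libraries labelled Tfap2b+/-. None of the 34 genes passed with edgeR (0% of all genes) or DESeq2 (1.27% of all genes), and 6 had an unadjusted p under 0.05, 2 higher and 4 lower, against 11.5% of all genes (4.98% higher and 6.53% lower). These 6 were named after their values were seen. They were Slc6a11 (log2 fold -1.22 ± 0.37, SE), Slc6a9 (-0.95 ± 0.32), Agt (-2.10 ± 0.91), Ntsr2 (-0.34 ± 0.14), Htra1 (0.29 ± 0.12) and Slc1a2 (0.37 ± 0.16). The edgeR adjusted p of these genes was 0.37 to 0.43. Every Tfap2a+/- library lay below every library labelled Tfap2b+/- for Slc6a11 (142 to 235 CPM, against 242 to 646 CPM) and Gfap (106 to 116 CPM, against 119 to 193 CPM), and 17.2% of all genes had groups that did not overlap (8.03% higher and 9.2% lower). A higher mean in Tfap2a+/- was seen in 11 of 34 members, against 48.3% of all genes, and a lower one in 23, against 51.7%; without library 1 labelled Tfap2b+/- the members were 17 and 17. Without library 1 labelled Tfap2b+/- the log2 folds of Slc6a11, Slc6a9 and Agt were -0.72, -0.58 and -1.19. This comparison shares its libraries with the 2 above.

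Of 34 further astrocyte genes, among them Apoe, Kcnj10 and Sox9, 19 had a higher mean in Tfap2a+/- than in wild type (median log2 fold 0.02) and 22 in the libraries labelled Tfap2b+/- (median 0.07, and 14 of 34 without library 1 of that label), and none passed. Mt2, for a metal-binding protein induced by stress, was at 32.7 ± 7.31 CPM in Tfap2a+/- and 45.8 ± 8.73 CPM in wild type (SD, n = 3 each, log2 fold -0.49 ± 0.21). Slco1c1, a thyroid hormone transporter that brain endothelium also makes, was at 48.9 ± 4.22 CPM in the libraries labelled Tfap2b+/-, against 62.3 ± 11.2 CPM in wild type (log2 fold -0.35 ± 0.13). Mt3, for the neuronal growth inhibitory metallothionein, was at 105 ± 7.65 CPM in the libraries labelled Tfap2b+/-, against 123 ± 4.42 CPM in wild type (log2 fold -0.23 ± 0.08).

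Genes linked to reactive astrocytes had 21 of 24 members above the filter. Of these, 15 had a lower mean in Tfap2a+/- (median log2 fold -0.20), against 51.9% of all genes, and 16 in the libraries labelled Tfap2b+/- (median -0.25), against 50.3% of all genes, and none passed. Without wild-type library 2 these counts were 10 and 11 of 21. Serpina3n, a protease inhibitor that is a standard mark of reactivity, was at 10.6 ± 1.91 CPM in Tfap2a+/-, 40.4 ± 24.8 CPM in the libraries labelled Tfap2b+/-, with 19.1 ± 5.86 CPM in wild type (SD, n = 3 each). Its log2 folds over wild type were -0.84 ± 0.50 and 1.08 ± 0.49.

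In energy metabolism, 13 of 15 genes of glucose, glycogen and lactate had a lower mean in Tfap2a+/- than in wild type (median log2 fold -0.13) and 9 of 15 in the libraries labelled Tfap2b+/- (median -0.07), with none passing. The shares of all genes were 51.9% and 50.3%. Without wild-type library 3 the first count was 11 of 15. Ldha, for the lactate dehydrogenase subunit that favours lactate production, was at 154 ± 40.4 CPM in the libraries labelled Tfap2b+/-, against 228 ± 29.2 CPM in wild type (edgeR adjusted p = 0.39, log2 fold -0.57 ± 0.18). Neurons also make it. Of 11 genes of fatty acid oxidation, 10 had a lower mean in Tfap2a+/- (median -0.08) and 7 in the libraries labelled Tfap2b+/- (median -0.03), with none passing. These counts rested on single libraries: without wild-type library 2 they were 5 and 2 of 11, and the second was 11 without library 1 and 3 without library 3 of the Tfap2b+/- label. The 10 oligodendrocyte markers summed to 2272 to 5933 CPM in Tfap2a+/-, 2704 to 7385 CPM in the libraries labelled Tfap2b+/-, with 4910 to 7279 CPM in wild type, and all were detected in every library. The 10 neuronal markers summed to 7073 to 9314 CPM in Tfap2a+/-, 6179 to 7779 CPM in the libraries labelled Tfap2b+/-, with 8068 to 9003 CPM in wild type.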

How the data were processed

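RNA-seq of brain tissue from 9 libraries was analysed, 3 per genotype as given by the sample titles. Per the labels' protocols, polyadenylated RNA was made into dUTP-stranded libraries and sequenced as 75 bp pairs. The authors deposited whole-number counts per gene (unstranded, forward and reverse strand), 1 file per library, laid out as STAR writes gene counts. Per the submitters' processing notes, the tools were STAR 2.6.1d, cutadapt 2.4 and edgeR, and the build was GRCm38.p6. No source used here gives the annotation release.

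Reverse-strand counts were used, as the kit requires. The 4 rows that name no gene (15.5% to 19.7% of fragments) stayed out of library sizes and tests. Symbols, coordinates and exon lengths came from GENCODE M21 on the same build, ignoring versions (54409 of 54446 identifiers matched). STAR does not count reads at several positions, and Glul and Aldh1l1 share exon sequence with an overlapping gene on the same strand, so their counts may be low. No replicates agreed within sampling noise (chi-square per degree of freedom of at least 18.7).

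The 17355 genes kept by filterByExpr were scaled by TMM and tested with the quasi-likelihood F-test of edgeR 4.0.16 under R 4.3.3. The model held genotype alone, over all 9 libraries. Adjusted p-values (Benjamini-Hochberg) under 0.05 were called, and intervals are 95%. The 34 members and all lists were chosen with earlier results of these data known. Values in every library are given for 10 regional and defining genes and for the 6 members of smallest p in each comparison with wild type, and members outside this were named after their values were seen. Alternatives were DESeq2 1.42.0, its size factors, other filters, unstranded counts, a replicate block, only the groups compared, a robust fit and libraries left out. A regional marker is not reported here and is left out of its list's sum.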

Additional observations from a re-analysis of the deposited data

How the results depend on the processing

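No member was called under any of the 18 alternatives to the edgeR fit in any of the 3 comparisons, and the smallest adjusted p of a member under them was 0.696 for Tfap2a+/- against wild type, 0.0912 for Tfap2b+/- against wild type and 0.0512 for Tfap2a+/- against Tfap2b+/-. The signs of the log2 folds of the 6 members of smallest p in each comparison were kept in all of them. Over all genes, where edgeR called 0 in each comparison, DESeq2 called 30, 175 and 221 genes in the order above. Without a filter on low counts edgeR called 2 in the first comparison and 7 in the third. With 3 libraries left out together (wild-type 2, Tfap2a+/- 1 and Tfap2b+/- 1) it called 2 in the second and 1 in the third. These libraries were chosen from earlier work and were highest here in choroid plexus or in brainstem and hypothalamic markers. Leaving out 1 library at a time gave 0 to 3, 0 to 4 and 0 to 31 calls, with 31 and 4 of these without library 3 labelled Tfap2b+/-, 3 without Tfap2a+/- library 2 for Tfap2a+/- against either other group, and 2 without library 1 labelled Tfap2b+/- for that label against either other group. The cause was not tested. The replicate block called 0 genes and 0 members in each comparison. No pairing by replicate number was seen: 3 of 9 same-numbered pairs had deviations that correlated above 0.1. Of 18 choices of the best partner, 6 fell on the same number. This check could miss a shared batch whose effect is smaller than the differences between single libraries. The regional index moved most when library 1 or 3 labelled Tfap2b+/- was left out, and its difference from wild type was then -0.12 or -1.97, against -0.99 with all libraries. Counts of genes with a higher or lower mean were also taken without each library, an alternative chosen after seeing the data, and those of the printed counts that moved by over 1.5 times stand beside them. The median member's 95% interval reached 0.41 log2 units to either side of its fold, with 3 libraries per group.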
